A study of Homo sapiens with 18 samples.

Results

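To see how the transcripts of aldehyde-oxidizing enzymes varied with transformation and with CD10, the levels of 9 aldehyde dehydrogenase genes were examined in MCF10A-derived cells: ALDH1A1, ALDH1A3, ALDH1B1, ALDH2, ALDH3A1, ALDH3A2, ALDH4A1, ALDH7A1 and ALDH9A1. They were the listed members of the family with a probe set on the array, 9 of 19775 genes in all, and each was read from the probe set with the highest mean log2(intensity + 1) over the 18 arrays. MCF10A is a nonmalignant human mammary epithelial line. MCF10A-CT cells were the control, kept in standard medium (DMEM/F-12 with horse serum, insulin, hydrocortisone, cholera toxin and EGF). MC26 cells came from MCF10A cells exposed for a long time to BMP2, a bone morphogenetic protein, and IL6, an inflammatory cytokine. M1B26 cells came from MCF10A cells first sorted for the BMP receptor BMPR1B, then exposed to the same factors, and were expanded from 3 soft-agar clones. Both lines were still grown with BMP2 and IL6 at harvest (IL6 at 10 ng/ml, and BMP2 at 5 ng/ml by the labels' medium field but 10 ng/ml by their growth protocol), so derivation of the line and the factors in its medium cannot be told apart. From each line, unsorted, CD10- and CD10+ cells were profiled, with 2 biological replicates per group on 1 array each, so that 2 arrays stand behind each of the 9 groups and 6 behind each line. CD10 is a membrane metallopeptidase encoded by MME.

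Aldehyde dehydrogenases oxidize aldehydes to carboxylic acids with NAD or NADP as the electron acceptor. The ALDH1A enzymes make retinoic acid from retinaldehyde, the ALDH3 enzymes clear medium- and long-chain aldehydes from lipid peroxidation and sphingolipid breakdown, and others act in mitochondria on acetaldehyde or on intermediates of amino acid metabolism. In the mammary gland, aldehyde dehydrogenase activity is widely used to enrich stem and progenitor cells, and ALDH1A1 and ALDH1A3 are the isoforms most often linked to that activity.

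The RefSeq start-site windows (GRCh38.p14; 250 bases before and 50 bases from the annotated start) are shown for the 2 retinaldehyde dehydrogenases, 1 under and 1 above the low-value filter in every group, and for ALDH3A2, whose level was lower in both BMP2-exposed lines. Capitals mark CCAAT, the letters of the CCAAT box, and GCGTG, the core letters bound by the aryl hydrocarbon receptor, an inducer of several aldehyde-metabolizing genes, on either strand.
ALDH1A1, chr9:72953004-72953303, minus strand: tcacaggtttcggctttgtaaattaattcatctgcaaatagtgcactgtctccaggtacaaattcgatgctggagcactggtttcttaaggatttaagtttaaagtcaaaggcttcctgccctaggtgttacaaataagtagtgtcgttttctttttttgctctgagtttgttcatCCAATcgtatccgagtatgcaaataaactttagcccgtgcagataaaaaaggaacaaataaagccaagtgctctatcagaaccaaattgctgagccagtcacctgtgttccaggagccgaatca
ALDH1A3, chr15:100879581-100879880, plus strand: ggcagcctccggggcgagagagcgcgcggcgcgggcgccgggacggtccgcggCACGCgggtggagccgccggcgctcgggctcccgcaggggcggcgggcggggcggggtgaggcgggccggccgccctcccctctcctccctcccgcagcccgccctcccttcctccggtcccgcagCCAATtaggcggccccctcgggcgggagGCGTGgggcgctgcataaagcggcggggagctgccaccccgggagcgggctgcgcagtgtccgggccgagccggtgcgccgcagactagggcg
ALDH3A2, chr17:19648501-19648800, plus strand: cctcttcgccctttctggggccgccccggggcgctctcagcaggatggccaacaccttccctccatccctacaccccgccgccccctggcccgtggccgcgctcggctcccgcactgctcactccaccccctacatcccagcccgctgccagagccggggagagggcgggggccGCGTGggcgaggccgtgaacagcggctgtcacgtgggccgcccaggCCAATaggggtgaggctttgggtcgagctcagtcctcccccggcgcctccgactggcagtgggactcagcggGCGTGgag
The ALDH1A1 window held 7 CG pairs and the ALDH1A3 window 46, against a median of 14 over 35116 windows of the same length. GCGTG or its reverse complement CACGC occurred 2 times in the ALDH1A3 window, 2 times in this ALDH3A2 window and not in that of ALDH1A1, and 36.5% of all windows held it. CCAAT occurred once in each of the 3 windows and in 34.6% of all windows, ATTGG on the other strand included. The other ALDH3A2 window, and those of ALDH1B1, ALDH4A1, ALDH7A1 and ALDH9A1, held no GCGTG. TGACNNNGC, the core letters of the antioxidant response element, was in none of the members' windows and in 13.3% of all windows. These matches describe letters only. RefSeq windows were used for 7 of the 9 genes, and those of ALDH2 and ALDH3A1 were not analysed here.

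The arrays had been scaled to the same median intensity (16.7), replicate arrays correlated at 0.949 to 0.979, and arrays of different groups at 0.865 to 0.985. All 8 epithelial markers with a probe set were above the low-value filter in each line, whereas 0 of 4 leukocyte, 0 of 3 adipocyte and 1 of 4 endothelial markers were. Of 3 hepatocyte markers, a list included because liver is rich in aldehyde dehydrogenases, 1 was above it in MC26 and in M1B26 and 0 in the control line, with summed intensities of at most 49.6 on any array. Of 7 fibroblast and mesenchymal markers, 3 in MCF10A-CT cells, as many in MC26 cells and 4 in M1B26 cells were above it, with summed intensities of 5415 to 7926, 4841 to 6076 and 7380 to 15282, and their part in the results was not tested. MME followed the sort: its intensity was 9.73 and 11.3 in CD10- and 48.3 and 65.0 in CD10+ MCF10A-CT cells, 27.8 and 6.39 against 69.8 and 90.7 in MC26, and 56.4 and 15.95 against 1269 and 1021 in M1B26. CD10+ cells were thus higher in all 6 pairs, with the widest gaps in M1B26.

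Of the 9 genes, 7 had a mean above the median of all probe sets (an intensity of 14.3), the filter on low values, and were tested among 12171 genes with limma. A difference was called when its Benjamini-Hochberg adjusted p over all genes of the comparison was under 0.05. Differences are on the log2(intensity + 1) scale, which understates the change of dim genes.

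**Figure D1:**
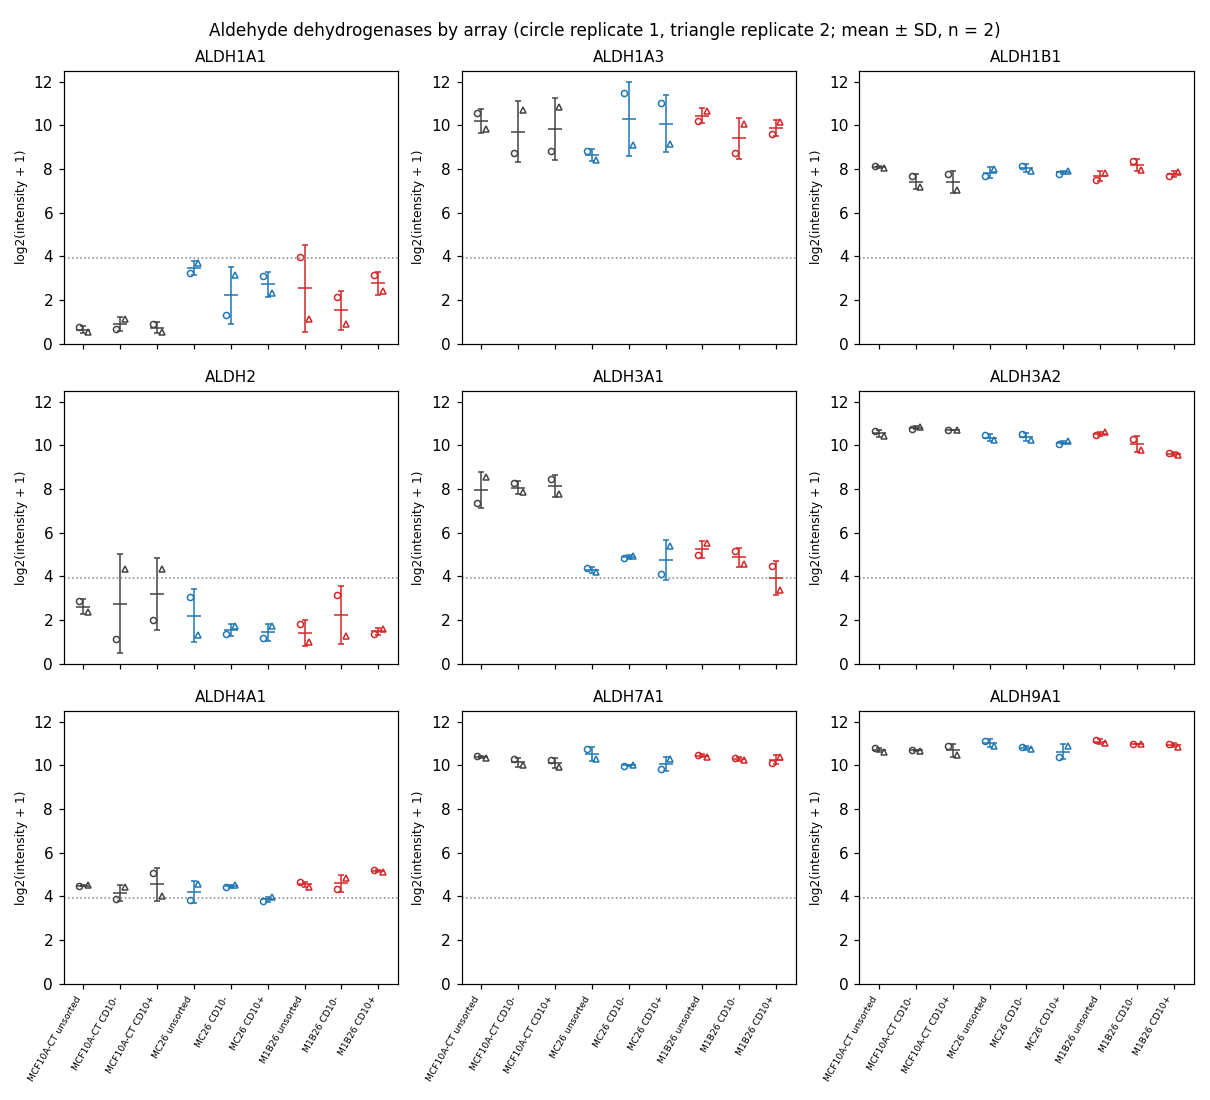
Level of each aldehyde dehydrogenase on each array, as log2(intensity + 1), in the 9 groups of line and population. Circles are replicate 1, triangles replicate 2, bars the mean ± SD (n = 2), and the dotted line is the low-value filter at log2 3.93. The group means of ALDH1A1 and ALDH2 lie under it, ALDH3A1 is high only on the MCF10A-CT arrays among the 3 lines, and levels of different genes cannot be compared.

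ALDH3A1, which encodes a cytosolic enzyme that oxidizes medium-chain and aromatic aldehydes, was about 10-fold lower in both BMP2-exposed lines than in the control line. Its intensities in MCF10A-CT were 164 and 375 in unsorted, 307 and 231 in CD10- and 357 and 221 in CD10+ cells. In MC26 they were 20.2 and 17.4, 27.4 and 29.8, and 16.05 and 40.8 in the same order of populations. In M1B26 they were 30.5 and 44.9, 35.1 and 22.7, and 21.3 and 9.45. Every MCF10A-CT array lay above every array of the other 2 lines. Averaged over the 3 populations, the level was 8.05 ± 0.46 (SD, n = 6 arrays) in control cells, 4.64 ± 0.50 in MC26 and 4.68 ± 0.74 in M1B26. The difference from MCF10A-CT was -3.41 in MC26 (SE 0.28, 10.6-fold lower, limma adjusted p = 4.87e-06) and -3.37 in M1B26 (SE 0.28, 10.3-fold lower, adjusted p = 1.64e-06). Both comparisons share the MCF10A-CT arrays. These were the sixth and the fifth largest decreases of the 12171 genes. The 6 arrays of a line are not 6 independent cultures, since its CD10- and CD10+ arrays of the same number were taken as pairs. Each line is also 1 cell line. Here and in the other line comparisons, the SE and p thus describe the spread among arrays, not among separate derivations of a line. Because the arrays measure bulk RNA, fewer ALDH3A1-expressing cells and less RNA per cell cannot be told apart.

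**Figure D2:**
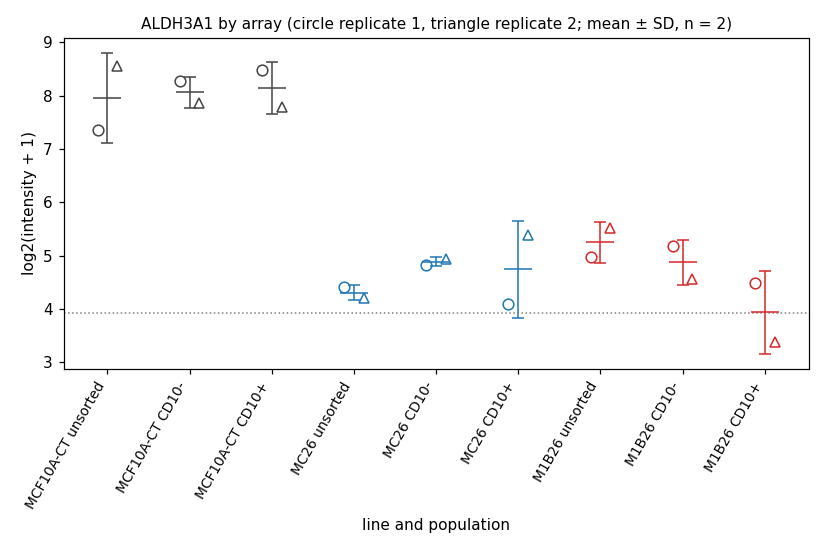
ALDH3A1 level as log2(intensity + 1) on each of the 18 arrays, by line (black MCF10A-CT, blue MC26, red M1B26) and population, with circles for replicate 1, triangles for replicate 2 and bars for the mean ± SD (n = 2). The 6 MCF10A-CT arrays span intensities of 164 to 375. The 12 others span 9.45 to 44.9, near the low-value filter (dotted), and the lowest lies under it.

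The decrease of ALDH3A1 was seen in each population. In unsorted cells it was -3.65 in MC26 (SE 0.49, adjusted p = 0.0017) and -2.71 in M1B26 (SE 0.49, adjusted p = 0.0154), the first and the third largest decreases among all genes. In CD10- cells the means differed by -3.18 and -3.19, and in CD10+ cells by -3.40 and -4.20, in MC26 and M1B26 respectively. The unsorted MCF10A-CT replicates differed by 1.19, a gap matched or exceeded by 3.01% of genes in that group. Without MCF10A-CT unsorted replicate 2 neither unsorted difference was called, and without either unsorted M1B26 array that of M1B26 was not. The lines MC26 and M1B26 differed by 0.04 (95% interval -0.56 to 0.64), which leaves room for a difference of either sign. In the order of the 9 group means, only MCF10A-CT unsorted against M1B26 unsorted (a gap of 2.71) and M1B26 unsorted against MC26 CD10- (a gap of 0.36) were neighbours whose arrays did not overlap.

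ALDH3A2, the fatty aldehyde dehydrogenase of the endoplasmic reticulum, whose loss causes Sjögren-Larsson syndrome, was modestly lower in both lines. Its intensities in MCF10A-CT were 1611 and 1391 in unsorted, 1734 and 1860.0 in CD10- and 1657 and 1655 in CD10+ cells. In MC26 they were 1419 and 1209.9, 1481 and 1232, and 1074 and 1165. In M1B26 they were 1415 and 1557, 1266 and 894, and 814 and 746. Unsorted cells of the 3 lines overlapped, while all sorted arrays of MC26 and M1B26 lay below all sorted arrays of MCF10A-CT. Averaged over the populations, the difference from MCF10A-CT was -0.62 in M1B26 (SE 0.11, 1.53-fold lower, adjusted p = 0.000896) and -0.39 in MC26 (SE 0.11, 1.31-fold lower, adjusted p = 0.0146). Within populations it was -0.01 and -0.19 in unsorted cells, neither called (95% intervals -0.41 to 0.39 and -0.59 to 0.21), -0.76 and -0.41 in CD10- cells and -1.09 and -0.57 in CD10+ cells, in M1B26 and MC26 respectively. Whether the line difference itself differed between sorted and unsorted cells was not tested. Both other probe sets of the gene were lower too, by -0.80 and -0.62 in M1B26 (adjusted p = 0.00037 and 0.00166) and by -0.68 and -0.43 in MC26 (adjusted p = 0.00124 and 0.0154).

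Against all genes, these calls were not unusual in number. In M1B26, 3 of the 7 tested members were called against MCF10A-CT and 34.6% of all genes were, and in MC26 2 of 7 against 31.2%. By direction, 2 of 7 were lower in M1B26 and 7.61% of all genes, 1 of 7 was higher and 27.0% of all genes, and 2 of 7 were lower in MC26 and 11.5% of all genes. The members' median difference was 0.13 in M1B26 and -0.22 in MC26, and that of all genes 0.19 and 0.08. ALDH3A1 was the 1 member of 7 whose arrays did not overlap between the lines, as was so for 3.83% of all genes in M1B26 and 4.22% in MC26.

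**Figure D3:**
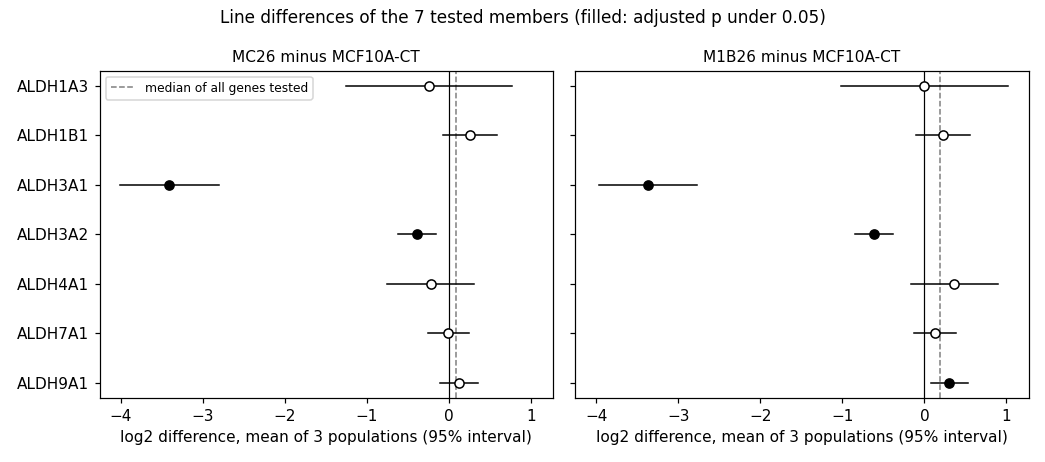
Difference of each tested aldehyde dehydrogenase from MCF10A-CT in MC26 (left) and M1B26 (right), as the log2 difference averaged over the 3 populations with its 95% interval. Filled points had an adjusted p under 0.05, and the dashed line is the median of all 12171 genes (0.08 and 0.19). ALDH3A1 stands at -3.41 and -3.37, ALDH3A2 at -0.39 and -0.62, and the others between -0.24 and 0.37.

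ALDH9A1, which oxidizes aminoaldehydes and takes part in carnitine synthesis, was the third gene called in M1B26. Its intensities were 1755 and 1586, 1675 and 1619, and 1895 and 1435 in unsorted, CD10- and CD10+ MCF10A-CT cells, and 2293 and 2056, 2035 and 2019, and 2029.8 and 1852 in M1B26. The MC26 arrays gave 2253 and 1897, 1852 and 1723, and 1350.4 and 1874. The arrays of MCF10A-CT and M1B26 overlapped through the CD10+ cells, where MCF10A-CT replicate 1 was above M1B26 replicate 2. The difference was 0.30 in M1B26 (SE 0.11, adjusted p = 0.0401), against a median of 0.19 for all genes in this comparison. It fell to 0.10 with each array centred on its tested genes and to 0.04 after quantile normalization, and with the sorted pairs as a random block its adjusted p was 0.0932. It was also not called without any 1 of the M1B26 arrays, the CD10- arrays of MCF10A-CT or MC26, or replicate 2 of the unsorted or CD10+ MCF10A-CT cells. In MC26 the difference was 0.12 (95% interval -0.10 to 0.35).

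Of the retinaldehyde dehydrogenases, ALDH1A3 gave a bright signal everywhere, but its replicates stood far apart in several groups. In unsorted cells its intensities were 1526 and 903 in MCF10A-CT, 452 and 344 in MC26 and 1187 and 1635 in M1B26. In MCF10A-CT, replicate 1 gave 419.7 in CD10- and 450.4 in CD10+ cells, and replicate 2 gave 1660.3 and 1821. In MC26 the order was opposite, with 2893 and 2058 in replicate 1 and 543 and 566 in replicate 2. In M1B26, replicate 1 gave 429.8 and 779 and replicate 2 gave 1075 and 1129.8. In MCF10A-CT and MC26 the sorted cells thus followed the replicate number rather than CD10. In M1B26 the CD10+ minus CD10- difference was 0.86 in replicate 1 and 0.07 in replicate 2. The replicates there differed by 1.32 in CD10- and by 0.54 in CD10+ cells. The replicate gap averaged 1.30 over the 9 groups and was widest, at 2.41, in MC26 CD10- cells, where 0.394% of genes had as wide a gap. It was 0.39 in unsorted MC26, 0.46 in unsorted M1B26 and 0.54 in CD10+ M1B26 cells. In these groups 41.7%, 29.3% and 13.5% of genes had as wide a gap.

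No difference of ALDH1A3 was called. Its CD10+ minus CD10- difference was 0.46 in M1B26, -0.22 in MC26 and 0.12 in the control line, and its mean over the populations differed from MCF10A-CT by 0.00 in M1B26 (95% interval -1.02 to 1.02) and -0.24 in MC26 (-1.26 to 0.77). The first of these intervals spans a 2-fold change in either direction. In unsorted cells the largest difference was between M1B26 and MC26, at 1.82 (95% interval 0.06 to 3.58, adjusted p = 0.998). All 8 pairs of neighbouring groups overlapped. The gene's other probe set was under the filter in all 9 groups.

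**Figure D4:**
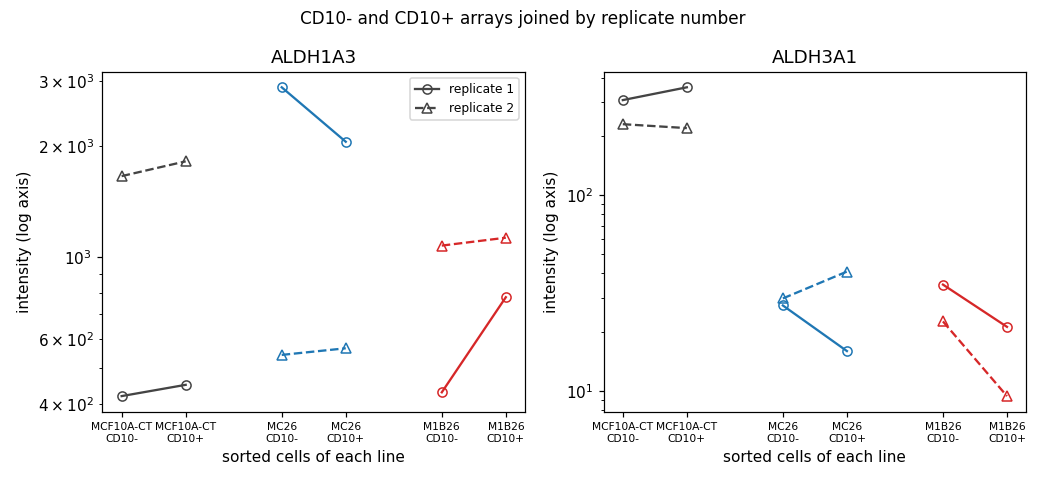
Intensity on a log axis of ALDH1A3 (left) and ALDH3A1 (right) in CD10- and CD10+ cells of each line, with lines joining the arrays of the same replicate number. For ALDH1A3 the lines of 1 cell line lie apart and are nearly flat except in M1B26 replicate 1 (430 to 779) and MC26 replicate 1 (2893 to 2058), whereas for ALDH3A1 both M1B26 pairs fall, to 21.3 and 9.45.

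ALDH1A1, the isoform best known as a stem cell marker, was under the filter in every group and was left out of the main test. Its intensities ran from 0.43 to 1.17 on the 6 MCF10A-CT arrays, from 1.47 to 12.1 on those of MC26 and between 0.86 and 14.4 for M1B26, where the highest value, in unsorted replicate 1, stood beside 1.19 in replicate 2. All MC26 arrays thus lay above all MCF10A-CT arrays, and those of M1B26 overlapped them. When all 19775 genes were tested with no filter, ALDH1A1 was higher than in MCF10A-CT by 2.05 in MC26 (SE 0.48, adjusted p = 0.00854) and by 1.52 in M1B26 (SE 0.48, adjusted p = 0.0362), and was called in no other comparison. The share of all genes called in that fit is not reported here. ALDH2, the mitochondrial enzyme that clears acetaldehyde, was also left out: its intensities lay between 0.99 and 7.96 except for 19.3 in both CD10- and CD10+ MCF10A-CT cells of replicate 2. With no filter it was called in no comparison. Apart from these 2 arrays of ALDH2 and the highest one of ALDH1A1, all intensities of both genes lay under the filter.

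The mitochondrial members ALDH1B1 and ALDH4A1 were called in no comparison. ALDH1B1, a relative of ALDH2, gave 281 and 265 in unsorted, 201 and 146 in CD10- and 215 and 132 in CD10+ MCF10A-CT cells. In MC26 it gave 203 and 257, 284 and 238, and 221 and 236, and in M1B26 181 and 227, 332 and 249.99, and 203 and 234. Both lines were thus below the control line in unsorted cells and had higher means in sorted cells. The differences from MCF10A-CT were -0.26 in MC26 and -0.43 in M1B26 for unsorted cells, 0.60 and 0.75 for CD10- cells and 0.43 and 0.37 for CD10+ cells, and the arrays overlapped only in CD10+ cells of M1B26. The averages over the populations, 0.26 in MC26 and 0.23 in M1B26 (95% intervals -0.07 to 0.59 and -0.10 to 0.56), combine these opposite signs. The other probe set of the gene had the same signs in each population (-0.27 and -0.54, 0.60 and 0.54, and 0.36 and 0.38). Whether the line difference itself differed between unsorted and sorted cells was not tested.

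ALDH4A1, of proline breakdown, was dim, at 12.9 to 36.1. Its highest group was CD10+ cells of M1B26, with 36.1 and 33.9. M1B26 exceeded MC26 by 0.59 (95% interval 0.06 to 1.12, adjusted p = 0.171). The other probe set of ALDH4A1, above the filter in 2 groups, was instead highest in CD10+ MC26 cells (18.6 and 22.3), the lowest group of the one used, and differed by -0.20 between these lines (adjusted p = 0.83). Between M1B26 and MC26, 8.09% of all genes but no member were called (1 member had an unadjusted p under 0.05). In their unsorted cells 0.0986% of all genes and again no member were called, with 1 unadjusted p under 0.05.

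ALDH7A1, the antiquitin gene of lysine breakdown, was lower in sorted than in unsorted cells by 0.31, just outside the threshold. Unsorted cells gave 1367 and 1305 in MCF10A-CT, 1732 and 1264 in MC26 and 1446 and 1359 in M1B26. CD10- cells gave 1239 and 1025, 1009 and 1044, and 1301 and 1198, and CD10+ cells 1221 and 987, 919 and 1241, and 1110.3 and 1359, in the same order of lines. Within each line all sorted arrays lay below both unsorted ones, although in M1B26 the closest pair was 1358.81 against 1358.83. The difference over the 3 lines was -0.31 (SE 0.10, adjusted p = 0.0517), where 15.2% of all genes were called. With the line and replicate number as a block on all arrays it was called (adjusted p = 0.0471). That block also ties unsorted to sorted arrays, although their deviations correlated at -0.01 to 0.12 only. With the sorted pairs as a random block the difference was not called (adjusted p = 0.0798). Of the gene's other 2 probe sets, both above the filter in all 9 groups, 1 differed by -0.30 (SE 0.13, adjusted p = 0.124) and the other by -0.02 (SE 0.14, adjusted p = 0.941). Per the labels, cells were frozen directly or stained and sorted, so the sort and the handling that went with it cannot be told apart.

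In the main fit, which left out any replicate pairing, no tested member was called between CD10+ and CD10- cells. In M1B26, 0 of 7 members were called and 6.5% of all genes were, and 1 member had an unadjusted p under 0.05. In MCF10A-CT and MC26 no member was called, none had an unadjusted p under 0.05, and 0.0% of all genes were called in each line. MME itself, higher in the CD10+ cells of every pair, was thus not called in these lines either. Both comparisons therefore had little power, and no conclusion about the members is drawn from them. The comparison of the CD10 difference between lines called no member either, with no unadjusted p under 0.05, and 0.0% of all genes for MC26 against MCF10A-CT, 1.38% for M1B26 against MCF10A-CT and 1.27% for M1B26 against MC26. In unsorted cells ALDH3A1 was the 1 member called, against 0.674% of all genes in M1B26 and 0.32% in MC26.

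The M1B26 values for the ALDH3 genes were the nearest to a CD10 difference. ALDH3A2 was lower in CD10+ than in CD10- cells by 0.45 (SE 0.19), with 814 against 1266 in replicate 1 and 746 against 894 in replicate 2 (adjusted p = 0.193). After quantile normalization or centring of the arrays it was called. The other probe sets of ALDH3A2 differed by -0.49 and -0.18 (limma adjusted p = 0.212 and 0.713). ALDH3A1 gave 21.3 against 35.1 and 9.45 against 22.7, a difference of -0.94 (SE 0.49, adjusted p = 0.323). Deviations of CD10- and CD10+ arrays with the same number correlated at 0.18 to 0.63, weakest in M1B26. The sorted arrays were therefore also fitted with line and replicate number as a paired block. That fit called ALDH3A1 (adjusted p = 0.0134) but not ALDH3A2 (adjusted p = 0.0852), and 2564 genes in place of 791. With that block on all arrays ALDH3A1 was not called (adjusted p = 0.276), nor with the sorted pairs as a random block (adjusted p = 0.0955), where ALDH3A2 had an adjusted p of 0.0549. Of the CD10+ values of ALDH3A1, 9.45 lay under the filter (an intensity of 14.3) and 21.3 above it.

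Genes whose 9 group means were most like those of ALDH3A1 were RHOF, a small GTPase (r = 0.983), GATM, of creatine synthesis (r = 0.968), CELSR2, an adhesion receptor (r = 0.963), SLITRK4 (r = 0.956) and OAS1, an interferon-induced antiviral enzyme (r = 0.955). The geometric mean intensity of GATM was 53.5 in control cells, 11.3 in MC26 and 10.9 in M1B26 cells, and that of RHOF 228, 80.4 and 83.0. For ALDH1A3 the nearest was BTNL9 (r = 0.903), followed by NMUR2, PLCB3, TBC1D22B and GCC2-AS1 (r = 0.880 to 0.819). These are Pearson correlations over 9 points that share arrays and come from the highest of 12171, and are given as descriptions.

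Among 10 other aldehyde dehydrogenase genes, 7 were tested. In M1B26, 1 was higher and 1 lower than in MCF10A-CT, where 27.0% of all genes were higher and 7.61% lower. In MC26, 1 was higher and 2 lower, where 19.7% of all genes were higher and 11.5% lower (median -0.42, against 0.08 for all genes). The 3 genes differed from MCF10A-CT in sorted cells, and in unsorted cells the arrays overlapped in each of these calls. ALDH6A1, of valine and pyrimidine breakdown, was lower by 0.98 in M1B26 (adjusted p = 0.00224) and by 1.48 in MC26 (adjusted p = 0.000181), with mean intensities of 467 and 477 in CD10- and CD10+ MCF10A-CT cells but 155 in unsorted ones, where the lines differed from it by 0.31 and 0.04. ALDH16A1, a family member without a known substrate, was higher by 1.13 in M1B26 and 1.12 in MC26 (adjusted p = 0.0024 and 0.00284). Its arrays gave 27.6 to 60.4 in sorted MCF10A-CT cells and 117 to 146 in sorted MC26 and M1B26 cells, and its unsorted differences were -0.08 and -0.13. ALDH5A1, the succinic semialdehyde dehydrogenase of GABA breakdown, was lower by 0.92 in MC26 (adjusted p = 0.0123), with -1.49 in CD10- and -1.27 in CD10+ cells and 0.00 in unsorted cells. ALDH3B1, an enzyme acting on membrane lipid aldehydes, was higher by 2.33 in CD10+ than in CD10- M1B26 cells (adjusted p = 0.00415), with 218 and 151 against 59.2 and 20.8.

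Around the ALDH1A step, 1 of the tested genes of retinoid synthesis and uptake was called in a derived line. Of 15 genes of retinoid synthesis and uptake 8 were tested, of which none was called in M1B26 (34.6% of all genes) and 1 was lower in MC26 (11.5% of all genes), namely DHRS9, a retinol-oxidizing enzyme (-1.35, adjusted p = 0.0043). STRA6, the membrane receptor that takes up retinol, was higher by 1.99 in CD10+ M1B26 cells (adjusted p = 0.000508), with 161 and 150.2 against 40.7 and 36.2 in CD10- cells. Of 13 genes of retinoic acid binding, breakdown and receptors 8 were tested. In M1B26 1 was higher and none lower, where 27.0% of all genes were higher and 7.61% lower. In MC26 1 was higher and 1 lower, where 19.7% of all genes were higher and 11.5% lower. FABP5, a carrier of fatty acids and retinoic acid, was higher by 0.49 in M1B26 and 0.92 in MC26 (adjusted p = 0.00885 and 0.000212). Within populations its differences were -0.58 and 0.08 in unsorted, 1.12 and 1.30 in CD10- and 0.92 and 1.38 in CD10+ cells, so that unsorted M1B26 cells were below the control. RARG, a retinoic acid receptor, was lower by 0.54 in MC26 (adjusted p = 0.0434).

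Of 15 known retinoic acid targets 10 were tested, and 4 were higher and 1 lower in M1B26, and 2 higher and 1 lower in MC26, against 27.0% and 7.61% of all genes in M1B26 and 19.7% and 11.5% in MC26. The lower one was TNFAIP2 in both lines (-1.77 and -2.04, adjusted p = 0.000432 and 0.000213), whose arrays gave 123 to 451 in MCF10A-CT, 34.3 to 110.3 in MC26 and 47.4 to 136 in M1B26. In CD10+ against CD10- M1B26 cells, 3 were higher and none lower, where 3.76% of all genes were higher (median 0.85, against 0.01 for all genes). These were STRA6, CYP26B1, which breaks down retinoic acid (0.94, adjusted p = 0.0397), and TGM2, the tissue transglutaminase (3.02, adjusted p = 0.000202), which gave 621 and 783 against 113 and 64.3. The CD10 difference of TGM2 was larger in M1B26 than in MCF10A-CT by 3.09 (adjusted p = 0.011).

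Of 25 genes of aldehyde formation and other clearance routes 16 were tested, with 2 higher and 5 lower in M1B26 and 1 higher and 6 lower in MC26 (medians -0.21 and -0.28, against 0.19 and 0.08 for all genes). The 7 called in each line compare with 34.6% and 31.2% of all genes, and by direction with 27.0% higher and 7.61% lower in M1B26 and 19.7% higher and 11.5% lower in MC26. AOX1, aldehyde oxidase, was higher by 2.60 in M1B26 and 1.63 in MC26 (adjusted p = 3.53e-07 and 5.13e-05), with 45.7 to 114 in MCF10A-CT, 149.6 to 363 in MC26 and 265 to 959 in M1B26. AKR1B10, a reductase of retinaldehyde and other aldehydes, was lower by 1.81 and 1.07 (adjusted p = 0.000296 and 0.00875). It differed by -1.85 and -1.61 in CD10- cells and by -3.37 and -2.01 in CD10+ cells, but by -0.19 and 0.41 in unsorted cells, whose arrays overlapped. AKR1C1 and AKR1C3, reductases of steroids and carbonyls, were lower by 0.92 and 0.93 in M1B26 and by 0.84 and 1.23 in MC26. The decreases were those of sorted cells. In unsorted M1B26 cells both genes had higher means than in MCF10A-CT, by 0.30 and 0.54, and in unsorted MC26 cells they differed by -0.23 and -0.05. AKR1C1, AKR1C3 and AKR1C2 are similar in sequence and their probes may not fully separate them.

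**Figure D5:**
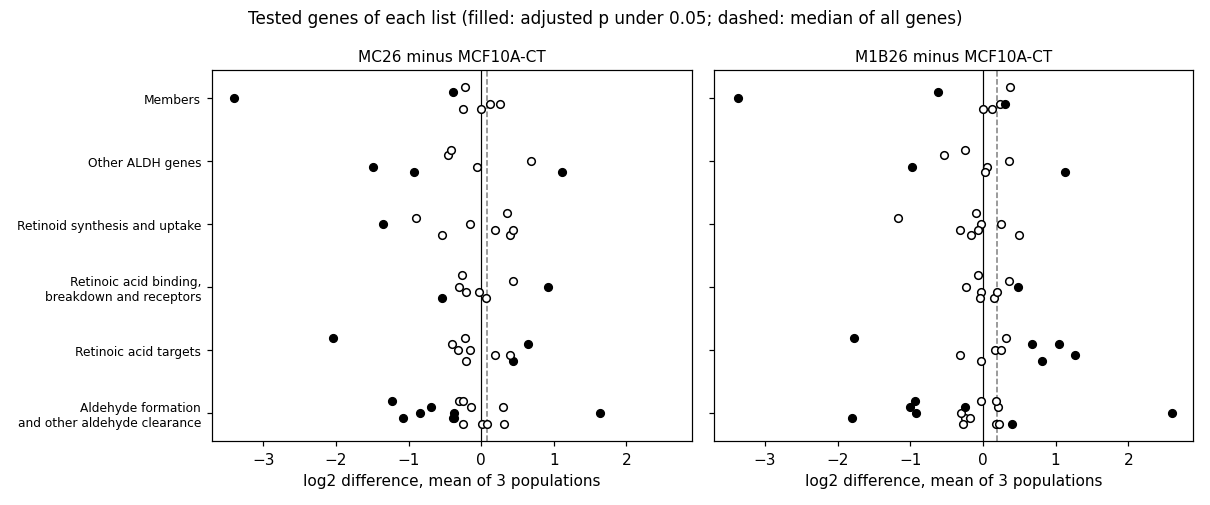
Log2 difference from MCF10A-CT, averaged over the 3 populations, of every tested gene in the member list and 5 related gene lists, in MC26 (left) and M1B26 (right), where each point is a gene, filled points had an adjusted p under 0.05, and the dashed line is the median of all genes. ALDH3A1 is the leftmost point in both panels (-3.41 and -3.37) and AOX1 the rightmost (1.63 and 2.60).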

How the data were processed

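RNA of 18 samples (3 lines, 3 populations, 2 biological replicates per group) had been amplified, labelled with biotin and hybridized to Affymetrix HG-U133 Plus 2.0 arrays. The deposited values are linear intensity values, which the submitters' processing notes credit to MAS5 in Affymetrix Expression Console, versions not given in the sources used here. The study's methods name RMA instead, but the values are not on a log scale and only their medians are equal (upper quartiles 95.1 to 124). The number of arrays limits the precision.

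Probe sets (54675) were named through GEO's array annotation, with symbols updated from RefSeq: 41091 had 1 gene, 1801 several, 11721 none and 62 were controls, and 54 had a gene identifier outside the RefSeq table. Those with 1 gene were used, taking for each gene the probe set with the highest mean. Values were log2(intensity + 1). Genes with a mean above the median of all non-control probe sets (log2 3.93) entered the fit: 12171 of 19775. limma 3.58.1 (R 4.3.3) fitted 9 group means with lmFit and eBayes with an intensity trend (9 residual and 6.28 prior degrees of freedom), and 13 two-sided contrasts were each adjusted by Benjamini-Hochberg. The script was tested on simulated data. Line differences averaged the 3 populations.

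The replicate numbers were checked for pairing. Deviations of CD10- and CD10+ arrays with the same number correlated at 0.18 to 0.63 in the 3 lines, over 0.1 in each. The numbers were therefore taken to pair the sorted samples. The main fit did not use this pairing, which entered only the alternative fits with blocks. Unsorted and sorted arrays of a line gave -0.01 to 0.12, over 0.1 in 1 of 6 pairs. Different lines gave -0.20 to 0.46, over 0.1 in 4 of 27 pairs. The highest of these, between unsorted MC26 and unsorted M1B26 cells, exceeded the sorted pairs of MC26 (0.36) and M1B26 (0.18). The check thus does not clearly separate paired from unpaired samples in these 2 lines.

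The members and gene lists were chosen with earlier results of these data known. All members are named, with the 5 genes most like the 2 members of widest range and up to 4 genes per list and comparison with the smallest p. DHRS4, CRABP1, CYP26C1, HOXA5, AKR1A1 and AKR1B1 were not analysed here, and some other listed genes are not reported here. Alternatives were another pseudocount, filter, scaling, probe set rule, set of arrays, variance model or test, the paired blocks, and each array left out in turn.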

Additional observations from a re-analysis of the deposited data

How the results depend on the processing

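Over the 195 values recomputed for called differences under other settings, 172 stayed past the threshold, 23 kept their direction but not the threshold, and 0 turned. ALDH3A1 and ALDH3A2 in both lines, averaged over populations, were called in all settings (27 for ALDH3A1, between -3.57 and -2.75 in M1B26 and between -3.62 and -2.80 in MC26, and 29 for ALDH3A2, between -0.87 and -0.53 and between -0.68 and -0.35). ALDH9A1 in M1B26 was called in 10 of 27 settings (0.04 to 0.37). In unsorted cells 1 member, ALDH3A1, was called for M1B26 and for MC26 against MCF10A-CT, and a t-test called 0 in both. With 2 arrays per group and adjustment over all tested genes, that t-test had little power, so no conclusion is drawn from it. Over 28 settings, including each array left out in turn, the unsorted ALDH3A1 difference stayed negative. It lay between -3.31 and -2.12 in M1B26 and between -4.25 and -2.93 in MC26. After quantile normalization and after centring, ALDH3A2 became the 1 member called between M1B26 and MC26 and the 1 called between CD10+ and CD10- M1B26 cells. With the line-by-replicate block on the sorted arrays, 1 member (ALDH3A1) was called in the latter. Between sorted and unsorted cells, 1 member (ALDH7A1) in place of 0 was called with the line-by-replicate block on all arrays and after centring, and 0 to 1 with 1 array left out: it was called without MC26 unsorted replicate 2, MCF10A-CT CD10- replicate 1, MCF10A-CT CD10+ replicate 1 or MC26 CD10+ replicate 2. The sorted-pair random block, chosen after seeing the data as was the block on sorted arrays, lost ALDH9A1 in M1B26 against MCF10A-CT (2 members called in place of 3) and changed no other count of members. Fixing the replicate number alone on all arrays changed no member call. With no filter on low values, ALDH1A1 was added to the calls in both lines against MCF10A-CT and ALDH9A1 was lost from those in M1B26 (3 members called in each). The share of all genes called in that fit is not reported here, so these counts are not set against it. The cause of these changes was not tested. Of 81 group levels, 70 moved by less than 1 SD after quantile normalization, by 0.24 at most. The median of all genes in M1B26 against MCF10A-CT, 0.19 as deposited, was 0.00 after quantile normalization.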
